A study of Mus musculus with 24 samples.

Results

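The Notch pathway was followed through 10 of its genes in 24 tumours excised from mouse cortex. The 10 are the receptors Notch1, Notch2 and Notch3, the ligands Dll1, Dll3 and Jag1, the glycosyltransferase Lfng, and the target genes Hes1, Hes5 and Hey1. They were chosen by name, each through probe sets that carry its symbol alone, and they are 10 of 17097 genes with such a probe set on the array. A gene is represented by its probe set with the highest mean over the 24 arrays, and 9 of the 10 passed the filter on low values, against 13218 genes in all. Notch2 did not pass and was left out of the limma comparisons, but it was kept in the correlations and the search for outlying tumours. Genes called tested below are those that passed this filter. Each tumour came from cells made to express a class gene, with 6 tumours for RAB3A, 9 for BC74C and 9 for ZNF668, and BC74C is printed as the labels spell it. The product of RAB3A is a GTPase that acts in vesicle release at synapses, and ZNF668 is a zinc finger gene. A second label calls 11 tumours ependymoma, 4 HGG (not spelled out in the labels), 5 TUMOR and 4 UNKNOWN. Among the 6 RAB3A tumours are 2 ependymoma, 2 TUMOR and 2 UNKNOWN, among the 9 BC74C tumours 6 ependymoma, 2 HGG and 1 UNKNOWN, and among the 9 ZNF668 tumours 3 ependymoma, 2 HGG, 3 TUMOR and 1 UNKNOWN. Strain, age, vector and host treatment are not given in the sources used here, and no sample is labelled as normal cortex. No label says that the tumours came from separate mice, so p-values measure the spread between these samples.

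Notch receptors are transmembrane proteins that are cleaved when a ligand on a neighbouring cell binds them. The freed intracellular part joins the DNA-binding protein RBPJ and switches on target genes, among them the Hes and Hey repressors, which in turn hold back neuronal differentiation genes. In the developing cortex this signalling keeps radial glia, the stem cells that make neurons and glia, in their undifferentiated state. Dll1 and Jag1 activate receptors on neighbouring cells, Dll3 acts mainly inside the cell that makes it and does not activate receptors on neighbours, and Lfng adds sugars to the receptor that change which ligands it responds to.

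The sequences below are shown because they carry, or lack, letters that DNA-binding proteins of the pathway recognize, which many other genes carry as well. RBPJ binds a core of TGGGAA, which reads on the other strand as TTCCCA. Hes proteins bind CACNAG, and both Hes and Hey proteins bind letters of the kind CACGTG. These letters were searched on both strands in the 250 bases before the start of each gene, from RefSeq on build GRCm38.p6. The 10 genes matched 8 entries, with 9 windows since Dll1 has 2, and Hes1 and Hey1 had no entry. TGGGAA stood in the windows of 2 genes, Hes5 and Lfng, each with 2 matches. Of all 32851 windows of this length 21.6% hold it. The Hes5 matches began 226 and 82 bases before the start and the Lfng matches 135 and 108 bases before it. The second Lfng match overlaps a CACGTG, 112 bases before the start, which 6.0% of all windows hold. The letters CACNAG, present in 36.7% of all windows, stood in those of Notch1, Notch2, Notch3 and Lfng. A match is a description of the letters and not a measured binding site. Capitals mark TGGGAA or TTCCCA, which the Notch1 window, shown for contrast, does not hold.
Hes5 (chr4:154960673-154960922, plus strand): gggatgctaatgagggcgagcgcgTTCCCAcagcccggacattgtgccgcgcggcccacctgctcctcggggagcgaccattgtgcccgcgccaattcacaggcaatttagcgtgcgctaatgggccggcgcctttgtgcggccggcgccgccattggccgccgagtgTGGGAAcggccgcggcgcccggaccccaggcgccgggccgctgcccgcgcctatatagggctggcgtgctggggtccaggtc
Lfng (chr5:140607091-140607340, plus strand): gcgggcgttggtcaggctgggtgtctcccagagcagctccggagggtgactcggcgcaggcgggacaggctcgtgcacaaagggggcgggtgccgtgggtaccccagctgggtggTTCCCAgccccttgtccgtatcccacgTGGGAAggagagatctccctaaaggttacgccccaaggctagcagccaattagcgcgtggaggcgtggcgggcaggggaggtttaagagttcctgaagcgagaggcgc
Notch1 (chr2:26503823-26504072, minus strand): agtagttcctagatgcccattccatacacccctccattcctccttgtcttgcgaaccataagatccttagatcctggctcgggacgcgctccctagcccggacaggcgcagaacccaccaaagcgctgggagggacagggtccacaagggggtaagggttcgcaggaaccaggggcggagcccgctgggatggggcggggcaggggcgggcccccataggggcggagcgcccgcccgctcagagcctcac

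The deposited values are log2 array values whose median lay between 4.98 and 5.2 in every tumour. Pairs of tumours correlated at 0.775 to 0.984 over the 13218 genes tested, and 0 pairs were identical. The title of a tumour starts with elw (18 of them) or mmr (6). Values within each set are given beside some of the results, and differences that changed sign within a set are listed at the end. The mean log2 value of the radial glia and neural stem list was 7.72 to 9.72, above the array median in every tumour. That of the mature neuron list was 4.6 to 10.23, and in ZNF668 tumour 7, the lowest, it lay below the array medians. In such bulk tissue, fewer cells of a type and less RNA per cell cannot be told apart. Tumours are numbered within a class gene in order of deposit. The number of arrays limits the precision.

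Among the receptors, the highest tumour exceeded the lowest 5.8-fold for Notch1 and 6.4-fold for Notch3 on the linear scale. Notch1 log2 values ran from 8.32 through a median of 9.73 to 10.40 in the RAB3A tumours. They ran from 9.10 through 9.94 to 10.44 in the BC74C tumours, and from 8.13 through 10.31 to 10.67 in the ZNF668 tumours. The 3 class genes overlap over almost the whole range, and the lowest ZNF668 tumour, number 9, lies below every other tumour. Notch1 means were 9.58 ± 0.76 (SD, n = 6) for RAB3A, 9.85 ± 0.52 (SD, n = 9) for BC74C and 10.03 ± 0.81 (SD, n = 9) for ZNF668, an order in which no neighbours differ beyond their spread. Notch3, the receptor best known from mural cells of vessels, ran from 6.23 through 7.0 to 8.41 in the RAB3A tumours. It ran from 7.15 through 7.85 to 8.91 in the BC74C tumours and from 7.20 through 7.80 to 8.88 in the ZNF668 tumours. The 3 lowest Notch3 values of all 24 tumours are those of RAB3A tumours 5, 2 and 4, while RAB3A tumour 6 is among the higher ones. Notch3 means were 7.10 ± 0.87 (SD, n = 6), 7.95 ± 0.60 (SD, n = 9) and 7.90 ± 0.52 (SD, n = 9) for RAB3A, BC74C and ZNF668. Notch2, left out of the limma comparisons, lay between 3.26 and 4.0 in all tumours, near the bottom of the scale, with an SD of 0.17.

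A second probe set was there for Notch1, Notch3, Jag1 and Lfng. Across the 24 tumours it correlated with the one used at 0.91 for Notch1, 0.82 for Notch3, 0.75 for Jag1 and 0.59 for Lfng. The second probe sets of Notch3, Jag1 and Lfng are dim, with mean log2 values of 3.79, 3.94 and 3.63, and that of Notch1 has a mean of 7.70. The Notch3 probe set used is of the kind that can share probes with related transcripts, so its level may not be that of Notch3 alone.

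**Figure D1:**
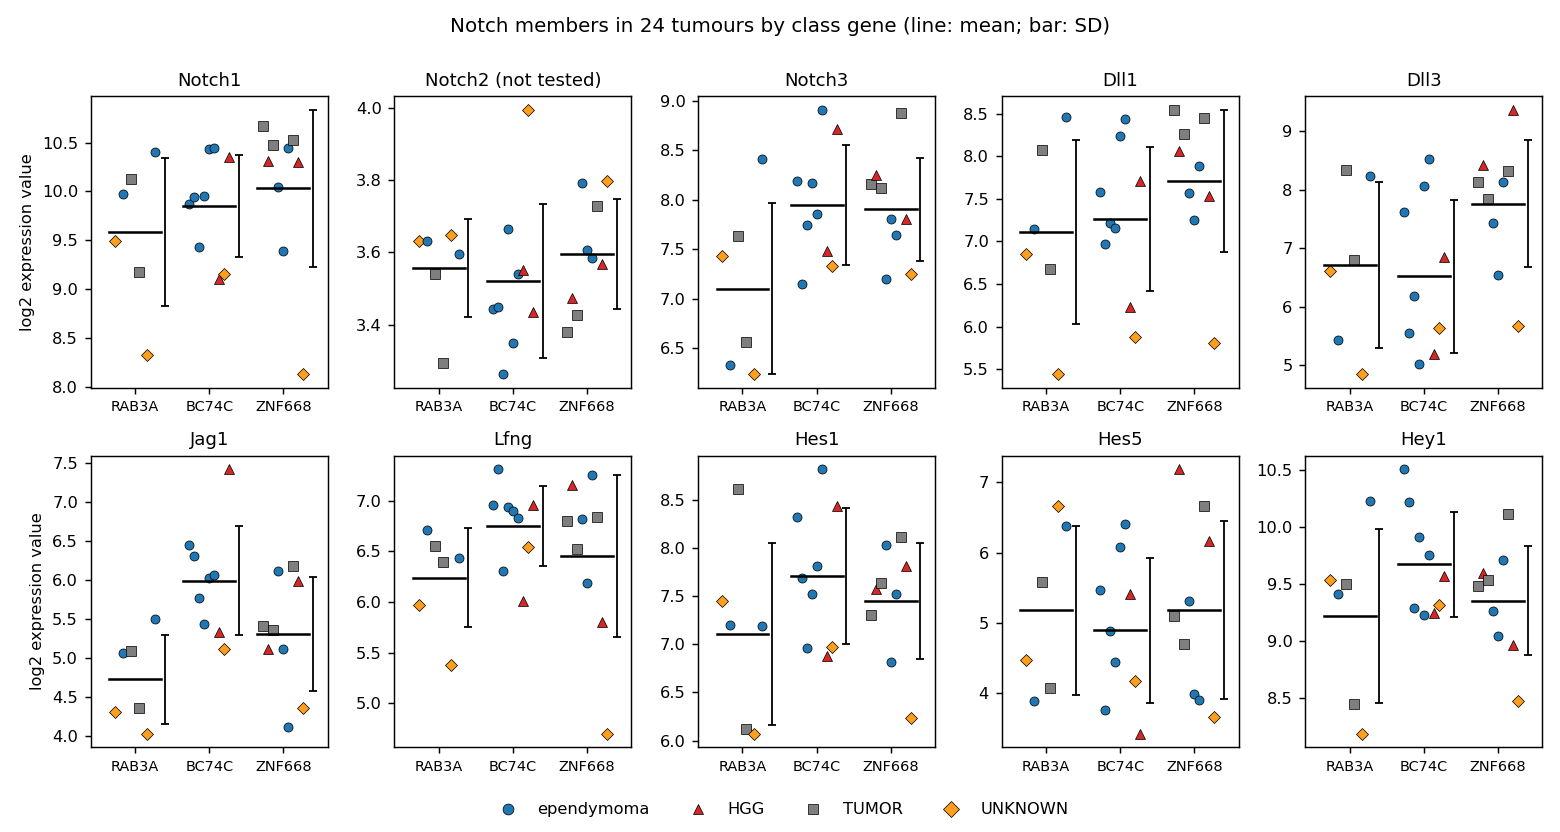
Log2 expression value (vertical axis, a separate scale for each gene) of the 10 Notch genes in each tumour, by class gene; colour and shape give the tumour label, the line the mean and the bar the SD. The class genes overlap in every panel, and tumours labelled UNKNOWN sit low for Notch1, Dll1 and Lfng.

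Of the ligands, Jag1 was the one whose values overlapped least between RAB3A and BC74C tumours. Jag1 log2 values ran from 4.03 through a median of 4.71 to 5.51 in the RAB3A tumours, and from 5.12 through 6.03 to 7.42 in the BC74C tumours. In the ZNF668 tumours they ran from 4.12 through 5.36 to 6.18. Every RAB3A tumour lay below the BC74C mean of 5.99 ± 0.70 (SD, n = 9), and 5 of 6 lay below the lowest BC74C tumour. The RAB3A mean was 4.73 ± 0.58 (SD, n = 6) and the ZNF668 mean 5.31 ± 0.73 (SD, n = 9). Dll1 ran from 5.44 through 7.0 to 8.45 in RAB3A, from 5.88 through 7.21 to 8.44 in BC74C and from 5.81 through 7.89 to 8.55 in ZNF668 tumours. Each class gene thus holds both low and high Dll1 tumours, and the means of 7.11 ± 1.08 (SD, n = 6), 7.27 ± 0.85 (SD, n = 9) and 7.71 ± 0.84 (SD, n = 9) differ by less than their SDs.

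Dll3 varied most of the 10 genes. Its log2 value ran from 4.84 through 6.70 to 8.34 in RAB3A, from 5.02 through 6.18 to 8.53 in BC74C and from 5.68 through 8.13 to 9.37 in ZNF668 tumours. The highest value was 23.0 times the lowest on the linear scale. Its SD over the 24 tumours was 1.335, larger than that of 96.3% of the genes tested. Lfng ran more narrowly, from 5.38 through 6.41 to 6.71 in RAB3A, from 6.01 through 6.90 to 7.31 in BC74C and from 4.70 through 6.80 to 7.26 in ZNF668 tumours. ZNF668 tumour 9, at 4.70, and RAB3A tumour 5, at 5.38, were its lowest.

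The 3 target genes differed in pattern. Hes1, like Hes5 a Hes gene of neural stem cells, ran from 6.07 through 7.20 to 8.62 in RAB3A tumours. It ran from 6.88 through 7.69 to 8.82 in BC74C and from 6.23 through 7.57 to 8.12 in ZNF668 tumours. The lowest and nearly the highest Hes1 values both came from RAB3A tumours. Hey1, a related repressor also active in vessels, ran from 8.18 through 9.45 to 10.23 in RAB3A, from 9.23 through 9.57 to 10.51 in BC74C and from 8.47 through 9.49 to 10.11 in ZNF668 tumours. Its SD over all tumours, 0.57, was the smallest of the 9 tested genes and still above the median of all tested genes, 0.44. Hes5, the target whose promoter letters are shown above, ran from 3.90 through 5.03 to 6.66 in RAB3A, from 3.42 through 4.88 to 6.41 in BC74C and from 3.67 through 5.10 to 7.18 in ZNF668 tumours. Its highest value was 13.5 times its lowest on the linear scale, and its SD of 1.12 exceeded that of 92.8% of tested genes. The lowest value, 3.42, lay below the lower quartiles of the arrays (3.51 to 3.6), so that fold rests on a value near the bottom of the scale. Further Hes5 values lay near the filter of 3.76, such as 3.67 in ZNF668 tumour 9, 3.77 in BC74C tumour 2 and 3.90 in RAB3A tumour 2. The part of such low values in the correlations of Hes5 was not tested. The class gene means of Hes5 lay close together, at 5.18 ± 1.20 (SD, n = 6), 4.90 ± 1.03 (SD, n = 9) and 5.19 ± 1.26 (SD, n = 9) for RAB3A, BC74C and ZNF668.

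The class genes were compared with limma over all 24 tumours, with Benjamini-Hochberg adjustment over 13218 genes. Of the 9 Notch genes tested 0 passed an adjusted p of 0.05 between RAB3A and ZNF668, where 0.0756% of all genes did. Between BC74C and ZNF668 0 of 9 passed, where 0.303% of all genes did, and between RAB3A and BC74C 0 of 9, where 0% of all genes did. At an unadjusted limma p under 0.05 the counts were 1, 2 and 2 of 9, beside 9.21%, 6.88% and 8.21% of all genes. The size closest to a call was Jag1 between RAB3A and BC74C, a log2 difference of -1.27 (SE 0.35, 95% interval -1.99 to -0.55, limma, adjusted p = 0.3248). That difference was -1.11 within the elw tumours and -2.65 within the mmr tumours, which hold 1 BC74C tumour. Averaged over both Jag1 probe sets it was -0.74, and within tumours labelled ependymoma it was -0.73.

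The Notch3 log2 difference was -0.85 for RAB3A minus BC74C (SE 0.33, limma, adjusted p = 0.4796) and -0.80 for RAB3A minus ZNF668 (SE 0.33, limma, adjusted p = 0.5254), neither a call. Its second, dim probe set gave -0.25 and -0.27. In BC74C minus ZNF668 Dll3 differed by -1.25 (SE 0.56, limma, adjusted p = 0.6609) and Jag1 by 0.69 (SE 0.31, limma, adjusted p = 0.6653), so the 2 ligands lay on opposite sides of 0 in that comparison. Within the tumours labelled ependymoma the Notch3 difference was -0.63 for RAB3A minus BC74C and -0.175 for RAB3A minus ZNF668, and that of Dll3 for BC74C minus ZNF668 was -0.54. All 9 log2 differences were negative for RAB3A minus ZNF668, with a median of -0.45 beside -0.04 over all genes. Within ependymoma tumours, of which 2 carry RAB3A and 3 ZNF668, 5 of these 9 were positive instead, at 0.23 for Notch1 and for Dll1, 0.17 for Jag1, 0.735 for Hes5 and 0.48 for Hey1. Hes5 was also positive in 7 of 24 fits that left out 1 tumour. They were 5 positive and 4 negative for BC74C minus ZNF668, with a median of 0.05 beside 0, and 2 positive and 7 negative for RAB3A minus BC74C, with a median of -0.45 beside -0.04. These comparisons share tumours, so their values are given side by side only. The mature neuron list was positive for 18 of 18 genes in RAB3A minus ZNF668, with group ranges of its mean of 7.51 to 10.23 for RAB3A and 4.6 to 9.85 for ZNF668. The radial glia and neural stem list was negative for 14 of 15 genes, with ranges of 8.06 to 9.53 and 7.72 to 9.62. With the mature neuron list as a covariate, Lfng, Hes1, Hes5 and Hey1 had positive RAB3A minus ZNF668 differences, of 0.04, 0.14, 0.49 and 0.17, and Notch3 had -0.43.

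**Figure D2:**
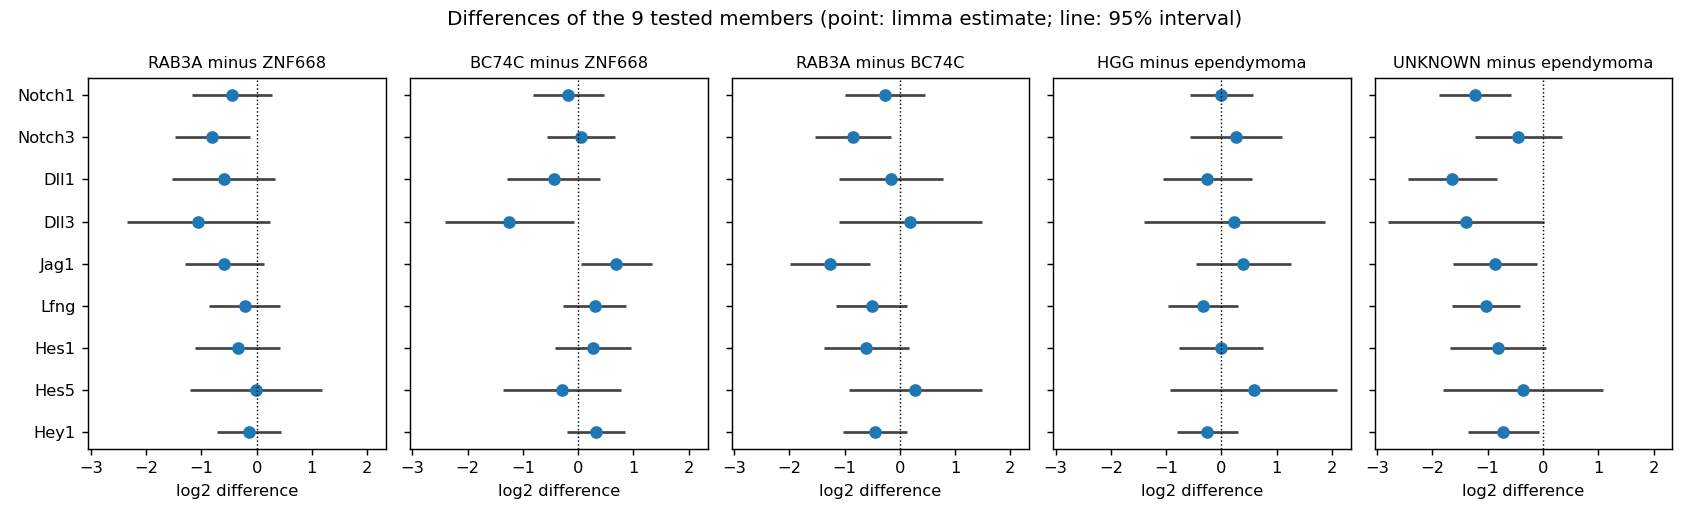
Log2 difference (horizontal axis) of the 9 tested Notch genes in 5 comparisons; points are limma estimates and lines 95% intervals. The intervals that exclude 0 are those of Notch3 for RAB3A minus ZNF668, of Dll3 (negative) and Jag1 (positive) for BC74C minus ZNF668, of Notch3 and Jag1 for RAB3A minus BC74C, and of Notch1, Dll1, Jag1, Lfng and Hey1 for UNKNOWN minus ependymoma; they are not adjusted for the number of genes.

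Tumour label was compared in the 15 tumours labelled HGG or ependymoma, with the class gene as a covariate. With limma 0 of the 9 Notch genes passed, where 0% of all genes did, and 0 of 9 had an unadjusted p under 0.05, beside 1.73% of all genes. The 9 differences were 4 positive and 5 negative with a median of -0.01 beside 0 over all genes. Of the HGG tumours 2 of 4 have an mmr title, against 1 of 11 ependymoma tumours, and once title prefix was fitted as a block 3 of the 4 positive differences were negative, Notch3 at -0.21, Dll3 at -0.67 and Jag1 at -0.17. The Notch1 values of the HGG tumours were 10.30, 10.31, 10.35 and 9.10, against 9.39 to 10.44 in the ependymoma tumours, so that 3 HGG tumours lay near the top of the ependymoma range and 1 below it. The Notch1 difference was -0.01 (SE 0.27, 95% interval -0.58 to 0.57, limma, adjusted p = 0.9998). The interval was widest for Dll3, from -1.41 to 1.87.

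The HGG minus ependymoma difference was also compared between BC74C and ZNF668 tumours, with 2 HGG tumours each. With limma 0 of 9 Notch genes passed, where 0% of all genes did, and 1 of 9 had an unadjusted p under 0.05, beside 8.16% of all genes. That gene was Hes5, at 7.18 and 6.16 in the ZNF668 tumours labelled HGG and at 5.41 and 3.42 in the BC74C tumours labelled HGG. The last of these values lies near the bottom of the scale, below the lower quartile of every array. The ependymoma means of Hes5 were 4.41 ± 0.79 (SD, n = 3) and 5.18 ± 1.0 (SD, n = 6). The difference of differences was -3.02 (SE 1.09, 95% interval -5.40 to -0.65, limma, adjusted p = 0.5905). The proliferation list went the same way in 17 of 17 genes, with a median of -2.78, its mean standing at 6.61 and 7.74 in the BC74C and at 8.98 and 9.46 in the ZNF668 tumours labelled HGG. The mature neuron list went the other way in 17 of 18 genes, with a median of 2.52, and the medians of the mature oligodendrocyte and endothelial lists were 1.06 and -0.91. The part of these lists in the Hes5 value was not tested.

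The tumours labelled UNKNOWN were compared with those labelled ependymoma after their values had been seen, in a limma fit of the 4 labels and the class gene over all tumours. Dll1 stood at 6.86 and 5.44 in RAB3A tumours 1 and 5, at 5.88 in BC74C tumour 8 and at 5.81 in ZNF668 tumour 9. In the 11 ependymoma tumours Dll1 lay between 6.97 and 8.45 with a median of 7.57, so these groups do not overlap for Dll1. This held for 0.847% of all genes, or 112 of 13218, and for 1 of the 9 Notch genes. The Dll1 difference was -1.64 (SE 0.39, 95% interval -2.45 to -0.84, limma, adjusted p = 0.1643), its place among all genes by p was 28, and it was not called. Notch1 stood at 9.49, 8.32, 9.15 and 8.13 in the same 4 tumours, of which 3 lay below every ependymoma tumour, and differed by -1.235 (SE 0.31, limma, adjusted p = 0.1755). Lfng stood at 5.96, 5.38, 6.54 and 4.70 and differed by -1.03 (SE 0.30, limma, adjusted p = 0.1857). Without ZNF668 tumour 9 the Lfng difference was -0.645. RAB3A tumour 5 and ZNF668 tumour 9 have an mmr title, as does only RAB3A tumour 6 among the ependymoma tumours. Alternatives for these differences were the title prefix as a block, the mature neuron list as a covariate and quantile normalization. Over them Dll1 ran from -1.72 to -1.33, Notch1 from -1.25 to -1.0 and Lfng from -1.03 to -0.88.

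In that comparison 0 of 9 Notch genes passed, where 0% of all genes did, and 5 of 9 had an unadjusted limma p under 0.05, beside 16.3% of all genes. The further 2 were Jag1, with a difference of -0.87 (SE 0.37), and Hey1, with -0.71 (SE 0.31). All 9 differences were negative, with a median of -0.87 beside -0.05 over all genes, and that of Hes5 turned to 0.085 without ZNF668 tumour 9 and to 0.12 with the mature neuron list as a covariate. The mature neuron list was positive for 18 of 18 genes, its mean running from 9.42 to 10.23 in the UNKNOWN and from 6.41 to 9.85 in the ependymoma tumours. The radial glia and neural stem list was negative for 14 of 15 genes, its mean running from 7.72 to 8.72 against 8.44 to 9.72. With the mature neuron list as a covariate the differences were -1.33 for Dll1, -1.0 for Notch1 and -0.88 for Lfng. For tumours labelled TUMOR against ependymoma, also compared after the values had been seen, 0 of 9 passed with limma, where 0% of all genes did, and 0 of 9 had an unadjusted p under 0.05, beside 1.9% of all genes. The median of those 9 differences was 0.13, beside -0.04 over all genes.

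The rest of the pathway was read from a list of 59 genes, of which 51 were measured and 49 tested. With limma 0 of 49 passed in any of the 7 comparisons. Between RAB3A and ZNF668 tumours 0 of 49 had an unadjusted p under 0.05, beside 9.21% of all genes, and the extremes were Fbxw7 (0.75), part of the ligase that marks the Notch intracellular domain for destruction, and Psen2 (0.52), a catalytic subunit of gamma-secretase, against Tle2 (-0.54), a Groucho-type co-repressor, and Poglut1 (-0.24), which glucosylates the receptor. Between BC74C and ZNF668 tumours 4 of 49 had an unadjusted p under 0.05, beside 6.88% of all genes. Neurl1b, a ubiquitin ligase of ligands, stood at a mean of 6.48 against 5.33, a difference of 1.15 (SE 0.33, limma, adjusted p = 0.2286), and Tle4 differed by 0.35. The lowest were Tle1, at -0.56 (SE 0.17, limma, adjusted p = 0.2309), and Cntn1, at -0.65. Between RAB3A and BC74C 3 of 49 had an unadjusted p under 0.05, beside 8.21% of all genes, with Cntn1 at 0.68 and Tle1 at 0.40 against Dtx3l at -0.87 and Hey2 at -0.64. Between HGG and ependymoma 0 of 49 did, beside 1.73% of all genes, with Heyl, a further Hey-family target, at 0.45 and Mib1, a ligase needed for ligand activity, at 0.25, against Spen, a co-repressor bound by RBPJ, at -0.48 and Furin, the protease that matures the receptor, at -0.31. In the difference of the label effect between BC74C and ZNF668 6 of 49 had an unadjusted p under 0.05, beside 8.16% of all genes, with Numb, an inhibitor of the receptor, at 0.80 and Tle4 at 0.66 against Hes6 at -1.26 and Tle3 at -1.145. Between UNKNOWN and ependymoma tumours 9 of 49 did, beside 16.3% of all genes, with Fbxw7 at 0.82 and Psen2 at 0.66 against Aak1 at -0.73 and Rbpj at -0.70. Between TUMOR and ependymoma 0 of 49 did, beside 1.9% of all genes. The medians of the list lay between -0.09 and 0.02 in the 7 comparisons.

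Many pairs of Notch genes were correlated across tumours. Of 45 pairs of the 10 genes 25 passed an adjusted permutation p of 0.05, with 100000 permutations and adjustment over the 45, and all 25 were positive. The lowest r that passed was 0.46 (Dll1 and Jag1), and of all pairs of tested genes 10.9% had an r at least as high. The share of tested genes with as high an r with the first gene of the pair had a median of 4.92% over the 25, from 0.02% for Notch1 and Dll1 to 17.24% for Notch1 and Jag1 and 19.13% for Dll1 and Jag1. All pairs of Notch1 or Notch3 with the 3 ligands passed (6 of 6), as did 4 of 6 pairs of these receptors with targets, 6 of 9 pairs of ligands with targets, 2 of 3 among ligands and 1 of 3 among targets. These counts rest on r. By rho, Notch1 and Jag1 (0.39, adjusted permutation p = 0.0938), Dll1 and Jag1 (0.43, 0.0625) and Jag1 and Hey1 (0.45, 0.0551) did not pass. For Notch1 and Jag1 r was 0.23 within elw tumours and 0.25 without the UNKNOWN tumours. Of the 9 pairs with Notch2 0 passed, the highest at r = -0.06. Hes5 passed in 1 of its 9 pairs, with Dll3 (r = 0.50, rho = 0.53, permutation p = 0.0133, adjusted p = 0.026), and the 8 other tested genes passed in 24 of their 28 pairs. Of these, Notch1 and Dll1 had the highest correlation, r = 0.93 (rho = 0.93, permutation p = 1e-05 for each, the smallest that 100000 permutations can give, adjusted p = 0.00015 for r and 0.000225 for rho). Without the 2 tumours farthest from the Notch1 median r was 0.91, within elw tumours 0.91, within mmr tumours 0.96 and without the UNKNOWN tumours 0.89.

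**Figure D3:**
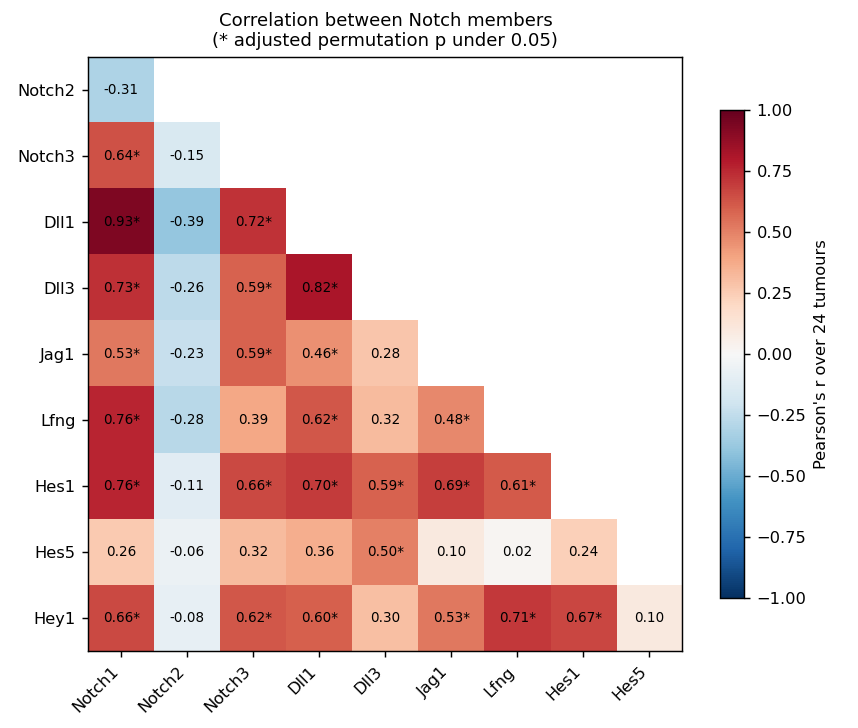
Pearson's r over 24 tumours for each pair of the 10 Notch genes (both axes; colour scale from -1 to 1); an asterisk marks an adjusted permutation p under 0.05. Of the 45 pairs 25 are marked, none with Notch2 and 1 with Hes5.

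Dll1 and Dll3 correlated at r = 0.82 (rho = 0.81, permutation p = 1e-05 for each, adjusted p = 0.00015 for r) and at 0.79 without the 2 farthest tumours. It was 0.84 within elw, 0.84 within mmr and 0.78 without the UNKNOWN tumours. Notch1 and Hes1 correlated at r = 0.76 (rho = 0.65, permutation p = 1e-05 for r and 0.00098 for rho, adjusted p = 0.00015 and 0.00551). That value was 0.63 without the 2 farthest tumours, 0.63 within elw, 0.90 within mmr and 0.61 without the UNKNOWN tumours. These 3 pairs were the only ones that passed over all tumours, within elw, after class gene means were removed, as residuals on the mature neuron list and without the UNKNOWN tumours. Many other genes also correlate in these tumours: 3.75% of tested genes had as high an r with Notch1 as Hes1 did, and 0.51% as high an r with Dll1 as Dll3 did. Notch1 and Lfng, at r = 0.76 (rho = 0.54, permutation p = 6e-05 and 0.00711, adjusted p = 0.000562 and 0.0188), had 0.49 without the 2 farthest tumours and 0.46 without the UNKNOWN ones. Jag1 and Hes1 reached r = 0.69 (rho = 0.66, permutation p = 0.00023 and 0.00059, adjusted p = 0.00115 and 0.00379), with 0.51 within elw and 0.97 within mmr, and 0.54% of tested genes had as high an r with Jag1.

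Residuals on the mature neuron list left 5 of the 45 pairs past the threshold, the elw tumours alone 10, the 6 mmr tumours 2 and the tumours not labelled UNKNOWN 7. Fewer tumours enter in these last 3 settings. Deviations from the class gene means gave 28, of which 27 were positive and 1 was negative, Notch2 and Dll1 at r = -0.46. Notch2 lay near the bottom of the scale in all tumours. Its r with Dll1 was -0.39 over all tumours (adjusted permutation p = 0.097) and 0.07 without the UNKNOWN tumours. The share of all pairs of tested genes was not computed in these settings.

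**Figure D4:**
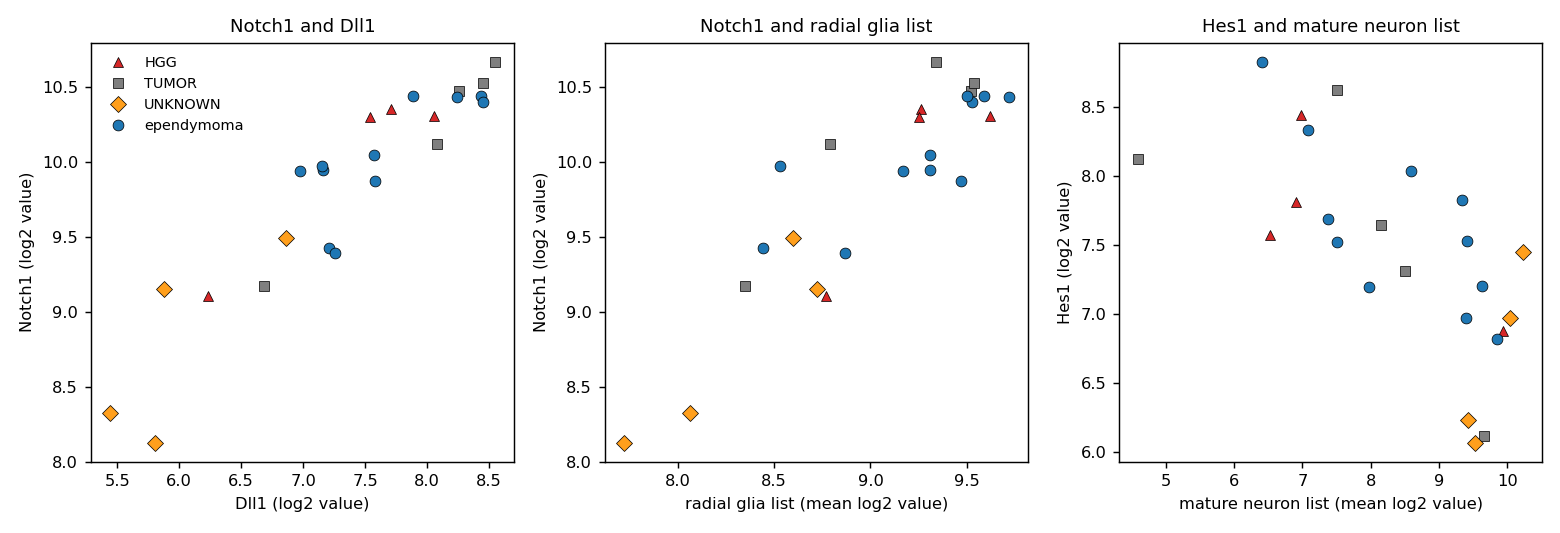
Left, Notch1 against Dll1; middle, Notch1 against the mean of the radial glia and neural stem list; right, Hes1 against the mean of the mature neuron list (log2 values on all axes; 1 point per tumour; colour and shape give the tumour label). Notch1 follows Dll1 at r = 0.93 and the radial glia list at 0.89, Hes1 runs against the neuron list at -0.69, and RAB3A tumour 5 and ZNF668 tumour 9 are the 2 UNKNOWN points lowest for Notch1.

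The same genes were compared with cell markers. Each of the 10 was compared with the mean of each of 11 marker lists, and 29 of 110 relations passed an adjusted permutation p of 0.05. The radial glia and neural stem list, led by genes such as Sox2, Pax6 and Nes, passed with 8 of the 9 tested Notch genes, all positive. The lowest r that passed with any list was 0.50 in size, and 21.4% of all tested genes had at least that r with the radial glia and neural stem list, its own genes left out. The highest was Notch1 at r = 0.89 (rho = 0.82, permutation p = 1e-05 for each, adjusted p = 0.00055 for each), with 0.81 without the 2 farthest tumours, 0.79 within elw and 0.99 within mmr. Dll1 followed at r = 0.83 (rho = 0.84, permutation p = 1e-05 for each, adjusted p = 0.00055 for each), with 0.73 without the 2 farthest. Hes5 was the 1 tested gene that did not pass, at 0.38.

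The mature neuron list passed with 7 of 9, all negative, from -0.69 for Hes1 (rho = -0.76, permutation p = 0.0002 and 2e-05, adjusted p = 0.002 and 0.000733) to -0.52 for Jag1, where 24.9% of tested genes had an r of -0.50 or lower. For Hes1 it was -0.71 within elw, -0.86 within mmr and -0.69 without the UNKNOWN tumours. The mature oligodendrocyte list passed with 6 of 9, all negative, lowest at -0.71 for Hes1, where 14.1% of tested genes reached -0.50. As residuals on the mature neuron list these 6 were smaller in size, at -0.48 for Hes1 (from -0.71), -0.30 for Notch1 (from -0.59), -0.29 for Hey1 (from -0.54), -0.26 for Dll1 (from -0.57), -0.15 for Notch3 (from -0.52) and -0.09 for Dll3 (from -0.50). The oligodendrocyte progenitor list, with Pdgfra and Olig2, passed with Dll3 at 0.78, Dll1 at 0.73 and Notch1 at 0.72, where 13.2% of tested genes reached 0.50, and Dll3 is the 1 tested gene for which this list and not radial glia was highest. Within elw the Dll3 value was 0.66 and within mmr 0.96. The ependymal and motile cilia list passed with Dll3 at -0.62 and Hes1 at -0.53, where 3.4% of tested genes reached -0.50. The Hes1 value was -0.29 without the 2 tumours farthest from the Hes1 median, which narrows the range of Hes1. It was -0.66 within elw, -0.30 within mmr and -0.55 without the UNKNOWN tumours. The proliferation list passed with Hes5 at 0.58 (rho = 0.56, permutation p = 0.00368 and 0.00553, adjusted p = 0.0193 and 0.0264) and with Hes1 at 0.52, where 18.6% of tested genes reached 0.50. As residuals on the mature neuron list the Hes1 value was 0.02 and that of Hes5 0.42. For Hes5 it was 0.54 within elw, 0.60 within mmr and 0.49 without the 2 farthest tumours, and no other list passed with Hes5. The endothelial list, with which 3.27% of tested genes reached -0.50, passed with Lfng at -0.64. That value was -0.37 without the 2 tumours farthest from the Lfng median, so it rests in part on those tumours. It was -0.23 within elw and -0.76 within mmr. The neuronal progenitor, astrocyte, pericyte and smooth muscle, and microglia and macrophage lists passed with none of the 9.

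**Figure D5:**
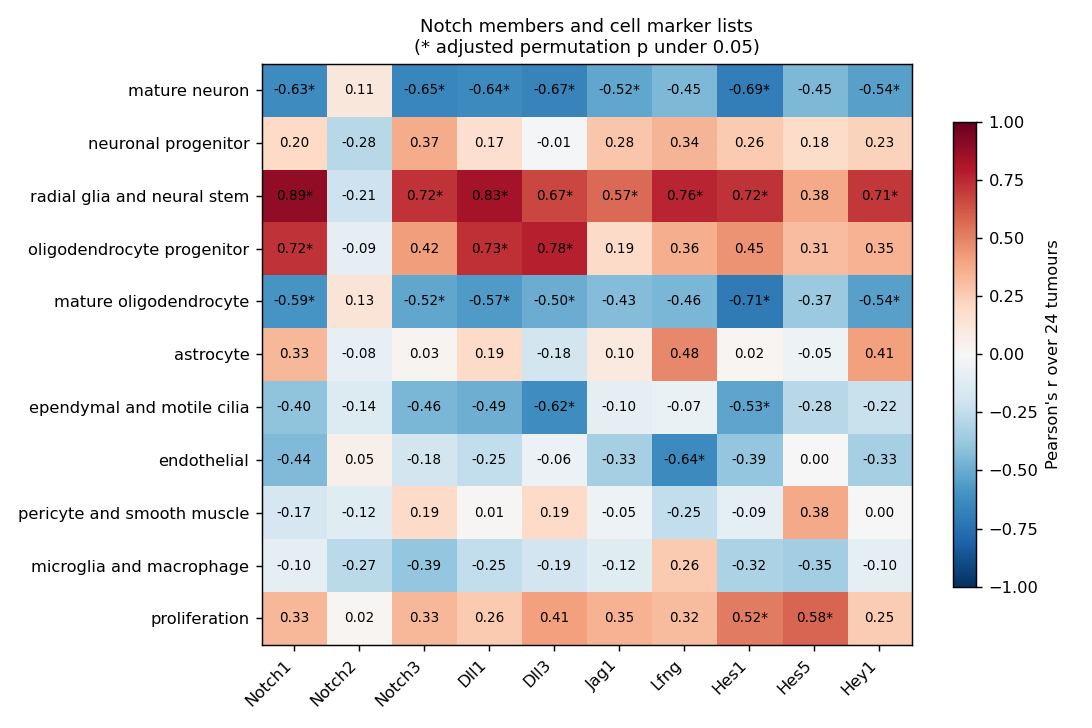
Pearson's r over 24 tumours between each of the 10 Notch genes (columns) and the mean log2 value of each of 11 cell marker lists (lines of the grid; colour scale from -1 to 1); an asterisk marks an adjusted permutation p under 0.05. The radial glia and neural stem list is positive and the mature neuron and mature oligodendrocyte lists are negative for all 9 tested genes.

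Single tumours carried several genes at once. RAB3A tumour 5, labelled UNKNOWN, was among the 3 lowest tumours for 8 of the 9 tested Notch genes and yet among the 3 highest for Hes5, at 6.66. Its proliferation list mean of 8.95 was high as well. ZNF668 tumour 9, also UNKNOWN, was among the 3 lowest for 6 of 9 and below the median for 9 of 9. It had the highest endothelial list mean, 8.28, and the highest mature oligodendrocyte mean, 10.69, of all tumours, and the lowest radial glia mean, 7.72, and astrocyte mean, 7.96. BC74C tumour 8 (UNKNOWN) and RAB3A tumour 4 (TUMOR) were below the median for 9 of 9 as well. BC74C tumour 6 (ependymoma) and ZNF668 tumour 7 (TUMOR) were below it for 0 of 9, and had 2 of the 3 lowest mature neuron list means, 6.41 and 4.6. The part of these markers in the Notch values was not tested beyond the covariate and residual values given.

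Of the 13218 tested genes, the 3 with the highest r to each Notch gene were taken over the 24 tumours, as a description. For Notch1 they were Nfia, a nuclear factor of gliogenesis (0.94), Dll1 (0.93) and Tspan12 (0.92), and for Dll1 they were Notch1 (0.93), Calcrl (0.92) and Sncaip (0.91). Those of Dll3 were Ppp1r14b (0.89), Adam12 (0.88) and Akap12 (0.88). Those of Jag1 were Mob3c (0.87), Nthl1 (0.86) and Mfge8 (0.81), and those of Lfng were Lpp (0.89), Sardh (0.89) and Acsbg1 (0.88). Notch3 had Grtp1 (0.85), Zfp334 (0.81) and Zscan21 (0.80). Among the targets, Hes1 had Zfp623, Irs1 and Mex3a, each at 0.87, Hey1 had Rgma (0.85), Rhbdl2 (0.83) and Cavin3 (0.82), and Hes5 had Asxl1 (0.79), Pde7a (0.76) and Nup93 (0.73). Notch2 had lower values than any of these, with Nfil3 (0.67), Igf2bp1 (0.66) and Guca1b (0.60).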

How the data were processed

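Per the labels' protocols, RNA was taken with Trizol and labelled with biotin for Affymetrix arrays, 1 single-colour array for each of 24 tumours. The deposited table holds log2 values for 45141 probe sets. Partek 6.6 was used, per the submitters' processing notes, and the normalization is not given in the sources used here. Values run from 2.4 to 13.85, with lower quartiles of 3.51 to 3.6 and upper quartiles of 7.58 to 7.69, so the arrays were read as already on a common scale, and a change shared by most genes would be hidden. Signal over background was not assessed.

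Controls, 104 probe sets, were not used. In the remainder 28898 have 1 symbol, 551 several and 15588 none, and 28689 were named through Entrez identifiers in a RefSeq table of GRCm38.p6. Each of 17097 genes took its probe set with the highest mean, and those under the 30th percentile (log2 3.76) were left out, leaving 13218.

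Comparisons used limma 3.58.1 in R 4.3.3 (lmFit, eBayes with trend). Tests were two-sided, at a threshold of 0.05 on p-values adjusted by Benjamini-Hochberg over the genes tested. Class genes were fitted in a single model of all tumours, and HGG minus ependymoma with the class gene as a covariate. Correlations used 100000 two-sided permutations (exact for the 6 mmr tumours), adjusted over 45 pairs or 110 relations with lists; the share of all tested genes, or pairs of them, at or past the lowest r that passed is given as a description. Scripts were tested on simulated data. Figures used matplotlib 3.10.9 and Python 3.11.15.

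Alternatives were the title prefix as a block or each prefix alone, the mean of a gene's probe sets, no filter, quantile normalization, the mature neuron list as a covariate, each tumour left out, ependymoma tumours alone, the compared groups alone, no class gene covariate and, added later, no UNKNOWN tumours. The genes and lists were chosen with earlier results of these data known. All 10 genes are named. Of the other pathway genes those that pass and the 2 highest and 2 lowest by moderated t are named, and for each Notch gene the 3 genes with the highest r, passing over predicted or clone names, and the lists at both ends.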

Additional observations from a re-analysis of the deposited data

Results flagged for a closer look

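There were 60 groups of 4 to 9 tumours, formed by the 10 Notch genes and the class genes or tumour labels. In 6 of them the gap of a tumour to its nearest neighbour was large against the whole range. Chance gives about 1 in 20 for a single group, but these groups share tumours and correlated genes, so an excess over chance was not tested. ZNF668 tumour 9 was low for Notch1, at a log2 value of 8.13 against 9.39 to 10.67 in the other ZNF668 tumours, and for Dll1, at 5.81 against 7.26 to 8.55. BC74C tumour 7 had a Notch1 value of 9.10 against 10.30 to 10.35 in the other tumours labelled HGG. RAB3A tumour 5 had a Notch3 value of 6.23 against 7.25 to 7.43 in the other UNKNOWN tumours. RAB3A tumour 4 had a Dll1 value of 6.68 against 8.08 to 8.55 in the other tumours labelled TUMOR, and a Notch2 value of 3.29 against 3.54 to 3.65 in the other RAB3A tumours. These Notch2 values lie under the filter of 3.76 and near the lower quartiles of the arrays (3.51 to 3.6), so that gap is within the bottom of the scale.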

How the results depend on the processing

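The number of arrays limits what can be called, and the share of signal above background is unknown. With limma 0 of 1764 differences of the 9 Notch genes under the alternatives passed, the lowest adjusted p being 0.0571 (Dll1, UNKNOWN minus ependymoma, without RAB3A tumour 4), and 103 had the other sign. None of the 63 differences was called in the first place, so a turned sign is not a lost call, and the cause was not tested. No paired analysis was possible because the labels do not link any tumours to each other. HGG minus ependymoma was not fitted within the mmr tumours, where tumour label cannot be told apart from class gene. There the HGG tumours carry ZNF668 or BC74C and the ependymoma tumour RAB3A. Class gene fits within mmr hold 1 BC74C tumour, assumed to vary like the others.

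Counts of genes called by limma over all genes moved as follows. RAB3A minus ZNF668 (10) gave 21 within elw, 6 without the filter, and 0 within mmr, with the mature neuron covariate, within ependymoma, in a fit of the compared class genes alone and without the UNKNOWN tumours, where 229, 599, 400, 1159 and 841 had an unadjusted p under 0.05. Leaving out 1 tumour gave 0 to 40, highest without RAB3A tumour 6 and next, at 28, without ZNF668 tumour 9. BC74C minus ZNF668 (40) gave 0 within mmr and 0 within ependymoma (405 and 681 unadjusted), and 25 to 63 when 1 tumour was left out, highest without ZNF668 tumour 9. RAB3A minus BC74C (0) gave 2 with the prefix block, 2 with the mean of the probe sets, 1 without the filter and 0 to 4 without 1 tumour. The difference of the label effect between class genes (0) gave 0 to 2, and UNKNOWN minus ependymoma (0) gave 0 to 11, highest without BC74C tumour 8. Pairs of Notch genes past the threshold (25) fell to 10 within elw, 2 within mmr, 5 as residuals on the neuron list and 7 without UNKNOWN, and relations with lists (29) to 19, 0, 13 and 13. The mean of the probe sets and quantile normalization gave 24 and 25 pairs.

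Within the elw tumours, the log2 difference changed sign to Notch3 -0.01, Lfng -0.066 and Hes5 0.047 for BC74C minus ZNF668, and to Hes5 -0.57 for RAB3A minus BC74C. In that setting it also changed to Dll3 -0.38 and Jag1 -0.36 for HGG minus ependymoma. Within the mmr tumours, the log2 difference changed sign to Lfng 0.12, Hes5 1.02 and Hey1 0.025 for RAB3A minus ZNF668, and to Notch1 0.70 and Dll1 0.44 for BC74C minus ZNF668. In that setting it also changed to Dll3 -0.31 for RAB3A minus BC74C. Within the ependymoma tumours, the log2 difference changed sign to Notch1 0.23, Dll1 0.23, Jag1 0.17, Hes5 0.73 and Hey1 0.48 for RAB3A minus ZNF668, and to Notch1 0.05, Dll1 0.029 and Hes5 0.77 for BC74C minus ZNF668. In that setting it also changed to Notch1 0.18, Dll1 0.20, Hes5 -0.035 and Hey1 0.002 for RAB3A minus BC74C. With the mature neuron list as a covariate, the log2 difference changed sign to Hes5 0.12 for UNKNOWN minus ependymoma, and to Jag1 -0.04, Lfng -0.074, Hes1 -0.10 and Hes5 -0.20 for TUMOR minus ependymoma. In that setting it also changed to Lfng 0.042, Hes1 0.14, Hes5 0.49 and Hey1 0.17 for RAB3A minus ZNF668, and to Notch1 0.012 for BC74C minus ZNF668. In that setting it also changed to Dll1 0.089 for RAB3A minus BC74C, and to Dll3 -0.24 for HGG minus ependymoma. With the title prefix as a block, the log2 difference changed sign to Notch3 -0.21, Dll3 -0.67 and Jag1 -0.17 for HGG minus ependymoma. Without the UNKNOWN tumours, the log2 difference changed sign to Dll1 0.15 and Hes5 -0.001 for RAB3A minus BC74C. With quantile normalization, the log2 difference changed sign to Notch1 0.001 for HGG minus ependymoma. With the mean of the probe sets, the log2 difference changed sign to Jag1 0.037 for the difference of HGG minus ependymoma between BC74C and ZNF668. Without the class gene covariate, the log2 difference changed sign to Hes1 0.046 for HGG minus ependymoma. With the 4 labels fitted over all tumours, the log2 difference changed sign to Hes1 0.031 for HGG minus ependymoma. When 1 tumour was left out in turn, some differences of either sign appeared. For HGG minus ependymoma they ran from -0.44 to 0.17 for Dll1, from -0.19 to 0.90 for Dll3, from -0.27 to 0.38 for Hes1, from -0.03 to 0.84 for Jag1 and from -0.18 to 0.34 for Notch1. For RAB3A minus BC74C they ran from -0.43 to 0.18 for Dll1, from -0.13 to 0.56 for Dll3 and from -0.013 to 0.54 for Hes5. For the difference of HGG minus ependymoma between BC74C and ZNF668 they ran from -1.22 to 0.35 for Hes1, from -1.11 to 0.98 for Jag1, from -0.79 to 0.56 for Lfng and from -1.0 to 0.23 for Notch3. For TUMOR minus ependymoma they ran from -0.19 to 0.52 for Hes1, from -0.34 to 0.43 for Hes5, from -0.29 to 0.16 for Hey1, from -0.12 to 0.32 for Jag1, from -0.088 to 0.13 for Lfng and from -0.013 to 0.39 for Notch1. For RAB3A minus ZNF668 they ran from -0.30 to 0.25 for Hes5 and from -0.34 to 0.072 for Hey1. For UNKNOWN minus ependymoma they ran from -0.89 to 0.085 for Hes5. For BC74C minus ZNF668 they ran from -0.073 to 0.17 for Notch3.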
